A study of Mus musculus with 6 samples.

Results

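Collagens are the main structural proteins of the extracellular matrix, and the genes described here encode their chains. The members are the 38 genes, of 21686 in the gene table, whose symbol is Col followed by a type number, the letter a and a chain number, and all were found with a count in at least 1 library. The RNA came from MC3T3-E1 Subclone 14, a single clonal line of mouse osteoblast precursors, cultured for 72 hours in 3 groups of 2 libraries. The control group received 100 µL of PBS. The dexamethasone group received 10 µM dexamethasone, a synthetic glucocorticoid, and the dexamethasone + EPC-EVs group received the same dose with 100 µg of extracellular vesicles from bone marrow endothelial progenitor cells of mice, named EPCs-exo in the labels. All groups were cultures of the same line, and no group received the vesicles alone. The study's question was whether such vesicles alter the response of osteoblasts to a high dose of glucocorticoid. The design text of the series speaks of fibroblasts and 48 hours, and the labels of the samples were followed here.

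Collagen chains assemble in threes into a triple helix, are hydroxylated and glycosylated in the endoplasmic reticulum, and are secreted. Those that form fibrils leave the cell as procollagens, whose ends are cut off before the molecules join into fibrils. Fibrillar collagens, with type I the most abundant, form the tensile part of bone matrix that later mineralizes. FACIT collagens decorate those fibrils, type IV and type VIII collagens form sheet-like networks, and type VI collagen forms beaded filaments around cells. Glucocorticoids in excess are known to lower bone formation, and type I collagen is the principal product of the osteoblast.

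The 4 libraries without vesicles held from 5146760 to 6583735 counts and the 2 with them 12864009 and 13182014. Levels of 1 gene over libraries are given as CPM, counts scaled to the same total in every library, and a member at 0 may have a level of up to 0.231 to 0.601 CPM, the worth of 3 counts, by counting error alone. Mitochondrially encoded genes took 7.46% and 8.62% of the control counts, 5.55% and 5.78% of the dexamethasone counts, but 0.465% and 0.727% of those with vesicles, so the last group stood apart. The gene with the most counts was Gm26917 in both vesicle libraries, at 5.88% and 6.69%, and mt-Co1 in the other 4. The osteoblast regulator Runx2 lay between 154 and 204 CPM in all libraries and the matrix protein Spp1 between 4328 and 11379.9 CPM, while Alpl, Bglap and Ibsp, markers of later stages, stayed at or below 6.52 CPM. The summed level of the osteoblast markers, 10 of 10 in the table, ranged from 10827 to 11843 CPM without vesicles and from 4543 to 6417 CPM with them, nearly all of it Spp1. Of these markers Spp1 and Phex were called lower with the vesicles in both comparisons. Of all genes, 18.9% were called lower against dexamethasone and 17.2% against control. The list as a whole had a median log2 fold change of 0.18 against dexamethasone and -0.12 against control. With a trend on transcript length and GC content removed, Spp1 and Phex stayed called against dexamethasone, at -0.60 and -1.19. Against control they were then not called, at -0.45 and -1.30. Of 10 endothelial markers 8 were in the table, with a summed level between 368 and 421 CPM without vesicles and 240.2 and 289 CPM with them, nearly all of it Cd34, which was called lower with the vesicles, while Pecam1, Cdh5, Tek and Emcn were at or below 1.62 CPM in every library. With the length and GC trend removed Cd34 was not called, at -0.14 against dexamethasone and -0.11 against control. Chondrocyte markers, 4 of 8 in the table, summed to between 187 and 309 CPM, of which Sox9, called lower with the vesicles against dexamethasone, was the bulk and Acan was at 0 in 5 libraries. Blood cell markers, 5 of 8 in the table, summed to at most 9.28 CPM in 5 libraries and 37.9 CPM in vesicle replicate 2, where Csf1r, called higher against control, had 36.3 CPM. Adipocyte markers, 4 of 6, summed to at most 10.0 CPM, and Fabp4 was called lower with the vesicles in both comparisons. Once the length and GC trend was removed, Fabp4 stayed called lower against dexamethasone but was not called against control. The part of these differences in the collagen results was not tested.

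Of all counts, collagen genes took 1.75% in each control library. With dexamethasone their share was 1.97% and 2.00%, and with the vesicles added it was 4.69% and 4.13%. Both vesicle libraries thus lay far above the other 4. With 2 libraries against 2, an exact two-sided permutation test cannot give a p below 0.333, and none was run on single values such as this share. In bulk RNA, fewer cells of a type and less RNA per cell cannot be told apart.

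Between genes, levels were compared as FPKM, counts scaled by the library total and by the length of the gene. In control, Col6a1 was the highest collagen gene at 485 ± 30.3 FPKM (SD, n = 2), followed by Col1a1 at 356 ± 27.5, Col12a1 at 276 ± 17.4 and Col1a2 at 195 ± 13.3. Col6a3 at 147 ± 18.9 and Col6a2 at 146 ± 10.0 came next and did not differ beyond their spread. With dexamethasone the first 4 kept this order, with Col6a1 at 627 ± 14.0 and Col1a1 at 422 ± 50.4, and Col12a1 at 232 ± 3.77 did not differ beyond its spread from Col1a2 at 229 ± 0.972. With the vesicles added, Col1a1 led at 1165 ± 208 FPKM and Col6a1 came in place 4 at 498 ± 10.6. Between them, Col1a2 at 824 ± 137 and Col12a1 at 761 ± 14.7 did not differ from each other beyond their spread. Col8a2 moved from place 21 in control, at 4.55 ± 0.558 FPKM, to place 18 with dexamethasone and to place 10 with the vesicles, at 137 ± 7.35. The length behind the deposited FPKM covers all exons of a gene, 12426 bases for Col1a2 against 5348 in its longest transcript and 6563 against 5930 for Col1a1, so the order of these chains depends on the length chosen.

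As shares of all collagen counts, Col12a1 held a mean of 24.1% in control, 17.9% with dexamethasone and 26.4% with dexamethasone + EPC-EVs. Col1a2 held 13.9%, 14.4% and 23.1% in the same order, and Col1a1 held 13.4%, 13.9% and 17.3%. Col6a1 went the other way, with 12.2%, 13.8% and 4.96%. With the vesicles the type I chains thus made up a larger part of the collagen reads than in any other library and the type VI chains a smaller one. For Col12a1 the vesicle libraries, at 25.1% and 27.7%, overlapped with control and lay above dexamethasone.

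**Figure D1:**
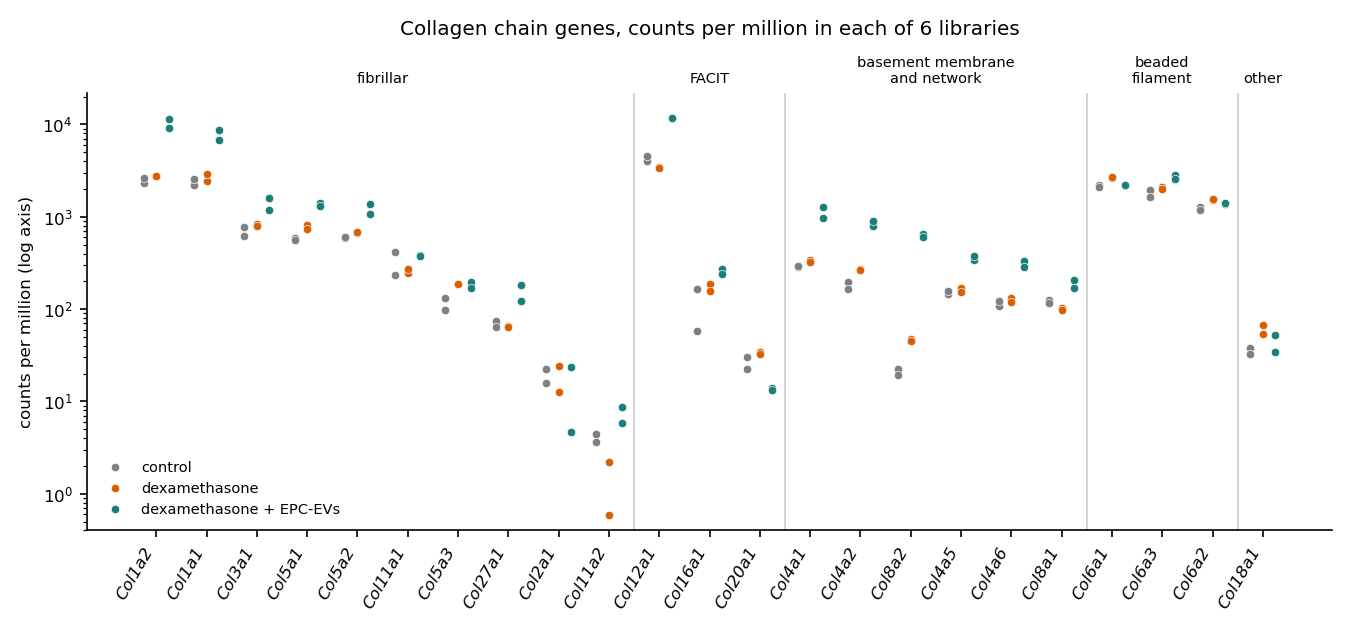
CPM on a log axis for 23 collagen genes, those that average at least 10 CPM or were called in a comparison, grouped by collagen class, with 1 point per library and the colour for the group. The vesicle libraries of Col1a1, Col1a2, Col12a1, Col4a1, Col4a2 and Col8a2 lie above all other libraries, those of Col20a1 lie below them, and the 3 type VI genes stay within a narrow band.

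Dexamethasone alone was compared with control to ask what the glucocorticoid did to collagen expression. No collagen gene was called: of the 28 that passed the filter on low counts, 0 had an adjusted p under 0.05 in edgeR's quasi-likelihood test, against 0.0155% of 12879 genes called higher and 0.0388% called lower. At an unadjusted p under 0.05 there were 9 of 28, where 10.9% of all genes were, and DESeq2 called 1 of 35 higher, Col5a3, where 0.203% of 19711 genes were. That unadjusted count depended on the fit. With a trend on transcript length and GC content removed it was 3 of 28, where 9.66% of all genes had such a p. It was 2 of 29 without dexamethasone replicate 1, where 3.49% did, and 5 of 28 without dexamethasone replicate 2, where 5.24% did. Without control replicates 1 and 2 it was 13 and 11 of 29, where 28.9% and 11.5% did. The median log2 fold change of the 28 was 0.18, against 0.0071 over all genes tested. The libraries of the 2 groups did not overlap in 15 members that were higher and 5 that were lower with dexamethasone, where 22.6% and 21.3% of all genes did so.

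The differences past 1 on the log2 scale were in Col8a2 and in the low-level Col15a1 and Col11a2. Col15a1 had 24 and 20 counts in control and 71 and 76 with dexamethasone, a log2 fold change of 1.44 ± 0.523 (SE) with an adjusted p of 0.384, and its groups did not overlap. Col8a2, a chain of the short network collagen of type VIII, stood at 22.3 and 19.2 CPM in control and 47.7 and 45.2 CPM with dexamethasone. Its groups did not overlap, and the log2 fold change was 1.15 ± 0.261 (SE) with an adjusted p of 0.256. Col5a3, the least abundant type V chain, had 131 and 97.1 CPM and 187 and 189 CPM, a log2 fold change of 0.72 ± 0.183 and an adjusted p of 0.279. Col18a1, whose chain carries endostatin at its end, had 38.3 and 33.0 CPM against 67.7 and 54.4 CPM and an adjusted p of 0.333. Col11a2 lay lower with dexamethasone, on 27 and 18 counts in control and 15 and 4 with dexamethasone, at -1.52 ± 1.04 with an adjusted p of 0.617. In the main bone chains the differences were small. Col1a1 overlapped between the groups with 2224 and 2540.1 CPM in control and 2456 and 2907 CPM with dexamethasone, a log2 fold change of 0.17 ± 0.144. Col1a2, with 2322 and 2618 CPM and 2771 and 2752 CPM, had a log2 fold change of 0.16 ± 0.131, and Col12a1, with 4039.6 and 4522 CPM and 3472 and 3389.8 CPM, of -0.32 ± 0.129.

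Among the further chains given here, the log2 fold changes with dexamethasone were widest in Col4a2 and Col5a1. Col3a1 had 782 and 614 CPM in control and 829 and 802 CPM with dexamethasone, a log2 fold change of 0.22 ± 0.151. Col5a1 had 589.9 and 554 CPM against 808 and 737 CPM, at 0.43 ± 0.138, and Col5a2 had 583 and 600.4 CPM against 661 and 678 CPM, at 0.17 ± 0.136. None of these was called. In type VI collagen, Col6a1 had 2231 and 2090.4 CPM against 2619 and 2701 CPM, at 0.30 ± 0.127. Col6a2 had 1281 and 1189.9 CPM against 1514 and 1543 CPM, at 0.30 ± 0.130, and Col6a3 had 1927 and 1644 CPM against 2077 and 2009.9 CPM, at 0.19 ± 0.135. In the type IV group, Col4a1 had 286 and 296 CPM against 339.6 and 322 CPM, at 0.18 ± 0.144, and its neighbour Col4a2 had 198 and 165 CPM against 273 and 265 CPM, at 0.56 ± 0.158. Col4a5 and Col4a6 had 145 and 157 CPM and 108 and 122 CPM in control, with log2 fold changes of 0.084 ± 0.163 and 0.12 ± 0.176. Col8a1, the partner of Col8a2, had 125 and 118 CPM in control and 102 and 97.2 CPM with dexamethasone, at -0.29 ± 0.172. Col20a1, Col27a1 and Col2a1 had 22.2 and 30.2 CPM, 74.6 and 63.7 CPM and 22.3 and 15.8 CPM in control, with log2 fold changes of 0.35 ± 0.284, -0.098 ± 0.204 and -0.054 ± 0.398. For Col1a1, Col1a2, Col4a1, Col4a5, Col4a6, Col6a1 and Col6a3 the sign turned below 0 when the length and GC trend was removed.

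How many collagen genes were called rested on control replicate 1. Without it 10 were called higher and 2 lower, where 9.25% and 6.80% of 13708 genes were, so calls became frequent over all genes. Without control replicate 2 a single collagen gene, Col8a2, was called higher, where 0.358% of 13675 genes were. In both fits the lone control sample is assumed to vary like the dexamethasone samples. The 10 were Col16a1, Col18a1, Col3a1, Col4a2, Col5a1, Col5a3, Col6a1, Col6a2, Col6a3 and Col8a2, and the 2 were Col11a1 and Col12a1. Col16a1 had 163 and 57.3 CPM in the 2 control libraries and Col11a1 had 235 and 411, so the control libraries differed from each other by more than the groups did in these genes. With that trend, a smooth curve for each library, removed, the median of the members was -0.064 and 12 of 28 lay above 0, where 19 did so before.

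Dexamethasone + EPC-EVs was compared with dexamethasone to ask what the vesicles added. Collagen genes mostly rose: 28 were tested, 17 were called higher and 2 lower by edgeR's quasi-likelihood test, where 20.9% of 13556 genes were called higher and 18.9% lower. Over the 28 the log2 fold change had a median of 0.77, against 0.012 over all genes. The gains were widest in Col8a2, both type I chains, the FACIT chain Col12a1 and the basement membrane chains Col4a1 and Col4a2. Col11a2 was higher by a wide margin too, but on few counts. The type V chain Col5a3, the type VI chain Col6a2 and the multiplexin Col18a1 were not called, and Col6a1 and Col20a1 were the 2 that fell.

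The size of this result rested on how length and base composition were treated. The 38 collagen genes had a median transcript of 5989 bases and 55.9% GC, against 3287 bases and 48.8% over genes with a mean of at least 10 counts. Removing the trend on both from each library shifted 25 of the 28 members down, by up to 1.1 on the log2 scale, and left 12 called higher and 7 lower, where 14.1% and 17.4% of all genes were called. The median of the members fell to 0.41. With 2 libraries a group, a trend that differs between library preparations and one that belongs to the treatment cannot be told apart. Col8a2, Col1a1, Col1a2, Col12a1, Col4a1, Col4a2, Col4a5, Col4a6, Col5a2, Col8a1, Col11a1 and Col3a1 were the 12 called higher.

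**Figure D2:**
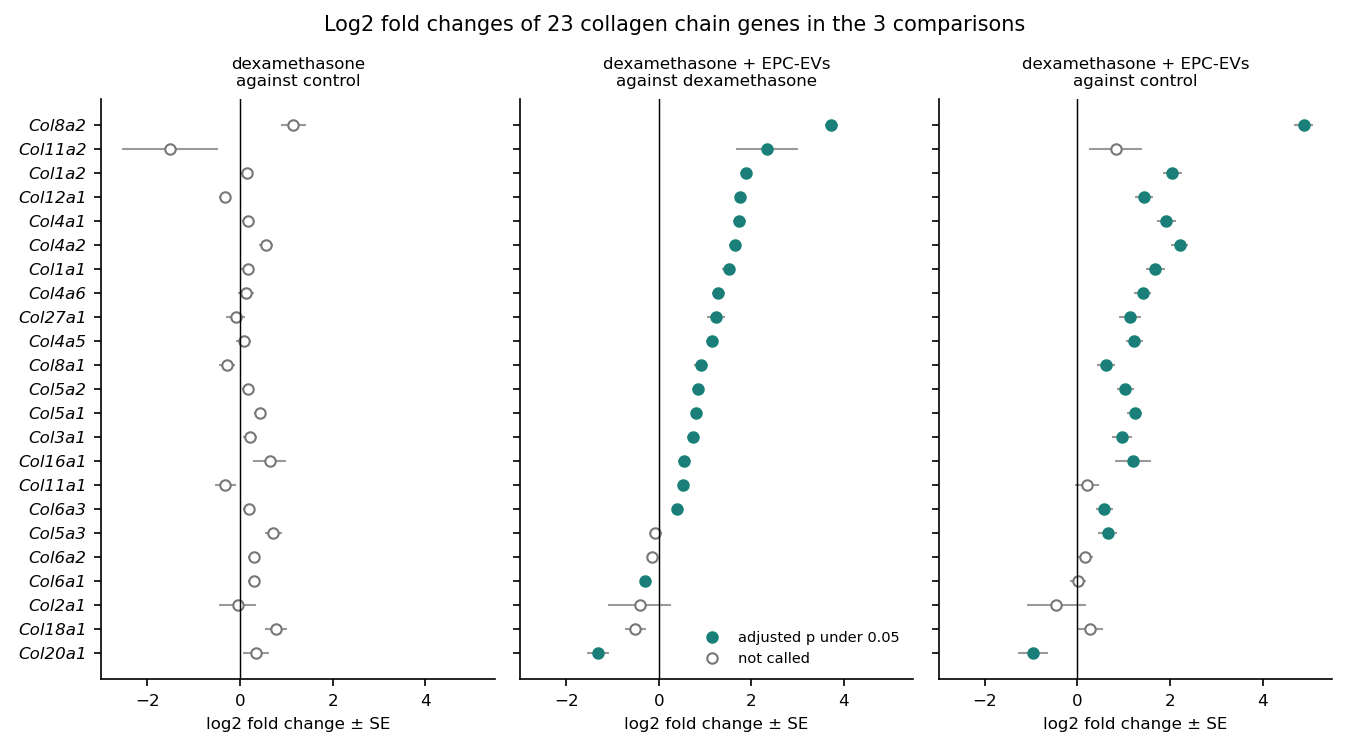
Log2 fold change with its standard error for 23 collagen genes in the 3 comparisons, with filled points for an adjusted p under 0.05 in edgeR's quasi-likelihood test. No gene is filled for dexamethasone against control, whereas Col8a2 at 3.73 is highest and Col20a1 at -1.32 lowest of the filled points for dexamethasone + EPC-EVs against dexamethasone.

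**Figure D3:**
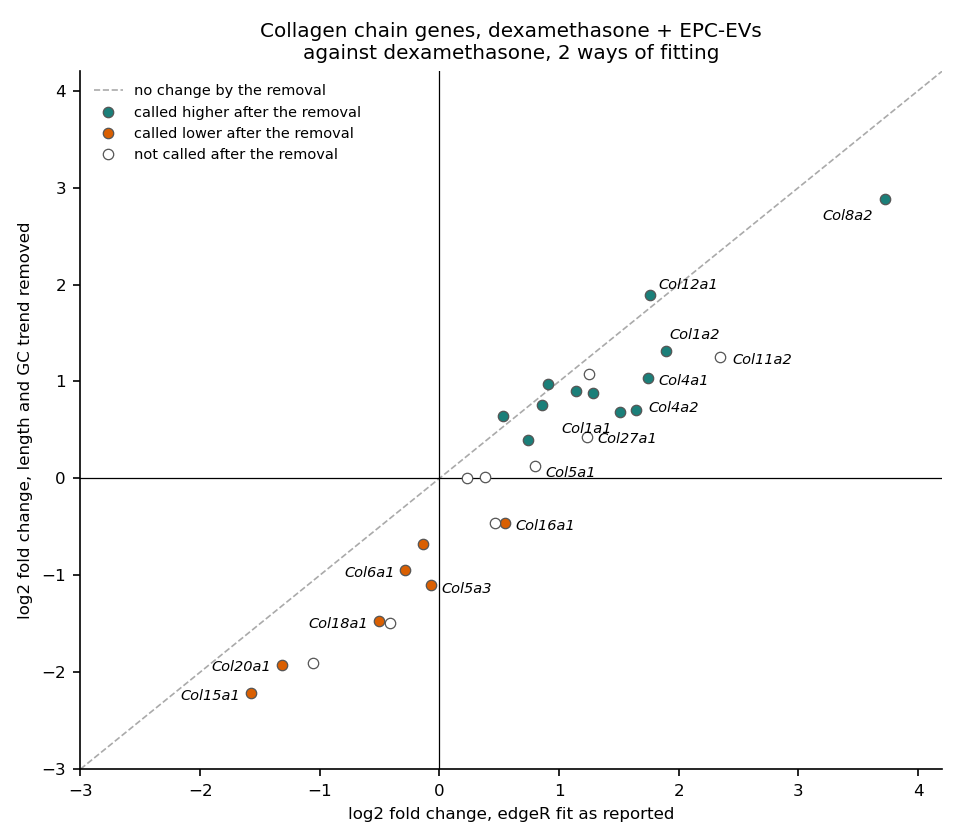
Log2 fold change of the 28 tested collagen genes for dexamethasone + EPC-EVs against dexamethasone as fitted (horizontal axis) and after removal of the length and GC trend (vertical axis), coloured by the call after removal. Most points lie under the dashed line of equal values, Col8a2 is highest on both axes, and Col16a1 crosses from above to below 0.

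Fibrillar collagens counted 11 members, all tested, of which 8 were called higher with the vesicles and 0 lower, beside the 20.9% and 18.9% of all genes. Their median was 0.85 on the log2 scale and 0.64 without the trend, where 5 were called higher and 1 lower, beside 14.1% and 17.4% of all genes. Col1a2 (GENCODE M21 on GRCm38, chr6:4504814-4541544, plus strand), the second chain of type I collagen, had 2771 and 2752 CPM with dexamethasone and 11561 and 9188 CPM with the vesicles. This was 3.71-fold higher, a log2 fold change of 1.89 ± 0.125 (SE) with an adjusted p of 1.42e-06. Col1a1 (chr11:94936224-94953042, plus strand), its partner chain, had 2456 and 2907 CPM and 8694 and 6793 CPM, 2.85-fold higher. Its log2 fold change was 1.51 ± 0.138 with an adjusted p of 1.16e-05, and 0.68 after removal of the trend. For Col1a2 the removal gave 1.31, so both type I chains stayed called.

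Col3a1, the chain of type III collagen found with type I in soft and healing tissue, had 829 and 802 CPM with dexamethasone and 1581 and 1183 CPM with the vesicles, a log2 fold change of 0.74 ± 0.137 with an adjusted p of 0.00131. Without dexamethasone replicate 2 its adjusted p was 0.0501, and the call was lost, and without the trend its log2 fold change was 0.40. Col5a1 and Col5a2, chains of type V collagen, which sits inside type I fibrils and limits their width, also rose. Col5a1 went from 808 and 737 CPM to 1419.6 and 1305 CPM, with a log2 fold change of 0.80 ± 0.113 that came to 0.12 without the trend, where it was no longer called. Col5a2 went from 661 and 678 CPM to 1375 and 1078 CPM, with a log2 fold change of 0.85 ± 0.130 that stayed called at 0.75. Col5a3, the other type V chain, did not follow. It had 187 and 189 CPM and 195 and 168 CPM, overlapping libraries and a log2 fold change of -0.071 ± 0.134 with an adjusted p of 0.706, and it was called lower at -1.10 without the trend.

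Among the minor fibrillar chains, Col27a1 had 66.4 and 63.2 CPM and 124 and 184 CPM, a log2 fold change of 1.23 ± 0.192 with an adjusted p of 4.28e-04. It was not called without the trend, at 0.43. Col11a1, a chain of type XI collagen that copolymerizes with type II in cartilage, had 249 and 271 CPM and 389.8 and 372 CPM and a log2 fold change of 0.53 ± 0.123. Its adjusted p was 0.00511, and without dexamethasone replicate 1 it was 0.0805. Col11a2 was close to the limit of detection, with 15 and 4 counts with dexamethasone and 74 and 112 with the vesicles. Its log2 fold change of 2.34 ± 0.674 had an adjusted p of 0.0162, which rose to 0.0914 without dexamethasone replicate 2 and to 0.102 without vesicle replicate 2. Without the trend it was at 1.25 with an adjusted p of 0.169, not called. Col2a1, the cartilage chain, had 24.3 and 12.7 CPM with dexamethasone and 23.5 and 4.70 CPM with the vesicles, so the replicates differed more than the groups, and its adjusted p was 0.674. Without vesicle replicate 1 it was called lower at -1.97, and without vesicle replicate 2 its sign turned, at 0.34. Col24a1, a minor chain known from bone, had at most 13.2 CPM and an adjusted p of 0.0576.

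FACIT collagens, named for their fibril-associated chains with interrupted triple helices, counted 8 genes in the table, and 5 were tested. Col12a1 (chr9:79598991-79718831, minus strand), which binds type I fibrils, had the most counts of all collagen genes, with 23576 and 23011 with dexamethasone and 151144 and 150721 with the vesicles. In CPM it rose from 3472 and 3389.8 to 11867 and 11624, 3.38-fold, with a log2 fold change of 1.76 ± 0.104 and an adjusted p of 7.96e-07. Removing the trend raised its value to 1.89, and among the members tested only those of Col11a1 and Col8a1 rose besides. Col16a1 had 189 and 157 CPM and 274 and 239 CPM and was called higher at 0.55 ± 0.141 with an adjusted p of 0.00903, but it was called lower at -0.47 once the trend was removed, and without dexamethasone replicate 2 the adjusted p was 0.136. Col20a1 was the clearest fall. It had 34.0 and 33.0 CPM with dexamethasone and 13.8 and 13.4 CPM with the vesicles, a log2 fold change of -1.32 ± 0.240 with an adjusted p of 0.00120, and it stayed called in each of 11 alternative fits, at -1.93 without the trend.

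As fitted, network collagens had the widest median change of the classes. All 6 tested members of the type IV and type VIII group were called higher with the vesicles, beside 20.9% of all genes, at a median of 1.46 on the log2 scale. All 6 stayed called without the trend, beside 14.1% of all genes, at a median of 0.94. The 3 tested members of the transmembrane, multiplexin and other classes then had a wider median, at -1.48. Col8a2 had 324 and 307 counts with dexamethasone and 8218 and 7806 with the vesicles, that is 47.7 and 45.2 CPM against 645 and 602 CPM. It was 13.2-fold higher, with a log2 fold change of 3.73 ± 0.136 (SE), an adjusted p of 3.66e-08 and a value of 2.88 without the trend. Its partner Col8a1, which forms the same type of network, had 102 and 97.2 CPM and 170.0 and 207 CPM. Col8a1 rose less, 1.87-fold, with a log2 fold change of 0.91 ± 0.149 and an adjusted p of 5.97e-04. Thus 2 chains of 1 collagen type moved by very unequal amounts.

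The start sites of these chains are shown because the pair differed so widely. They are RefSeq windows on GRCm38.p6 from 250 bases before to 50 after the start, given 5′ to 3′ on the gene's strand, with capitals for matches on either strand to the TATA box, written TATAAA, the CCAAT box of those letters and the GC box, written GGGCGG. Col8a2 lies at chr4:126286793-126314330, plus strand and its window at chr4:126286544-126286843, plus strand. Col8a1 lies at chr16:57624258-57754737, minus strand and its window at chr16:57754688-57754987, minus strand.
Col8a2: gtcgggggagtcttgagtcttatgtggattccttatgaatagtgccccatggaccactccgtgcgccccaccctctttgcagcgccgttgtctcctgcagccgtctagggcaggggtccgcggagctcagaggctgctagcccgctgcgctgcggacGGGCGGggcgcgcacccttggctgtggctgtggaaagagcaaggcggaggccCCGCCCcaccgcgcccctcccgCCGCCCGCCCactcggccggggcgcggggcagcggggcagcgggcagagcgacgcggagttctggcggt
Col8a1: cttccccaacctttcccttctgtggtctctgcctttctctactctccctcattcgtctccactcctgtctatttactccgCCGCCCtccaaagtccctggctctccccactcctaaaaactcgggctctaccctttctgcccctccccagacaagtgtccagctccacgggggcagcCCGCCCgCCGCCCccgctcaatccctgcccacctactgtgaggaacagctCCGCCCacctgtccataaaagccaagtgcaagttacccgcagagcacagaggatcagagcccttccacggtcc
Both windows held 4 GC boxes and neither held a TATA box or a CCAAT box. The Col8a2 window was 71.7% GC and the Col8a1 window 60.3%. A GC box was present in 35.7% of 32851 RefSeq windows of this kind and in 20 of the 30 collagen genes that had one, a CCAAT box in 37.4% and in 12, and a TATA box in 13.6% and in 3. Neither window held AGAACA, 1 arm of the glucocorticoid response element, found in 19% of all windows and in 1 of the 30, Col20a1. Matches on both strands were counted, and a window without a match says nothing of more distant sites.

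Col4a1 and Col4a2, the chains of the basement membrane collagen found in nearly every tissue, both rose. Col4a1 had 339.6 and 322 CPM with dexamethasone and 967 and 1272 CPM with the vesicles, a log2 fold change of 1.74 ± 0.144 with an adjusted p of 6.12e-06 and of 1.03 without the trend. Col4a2 had 273 and 265 CPM and 802 and 901 CPM, a log2 fold change of 1.65 ± 0.121 with an adjusted p of 3.04e-06 and of 0.71 without the trend. These genes lie head to head at chr8:11198423-11312826, minus strand and chr8:11312805-11449287, plus strand, with 22 bases in common, and their windows, at chr8:11312777-11313076, minus strand and chr8:11312555-11312854, plus strand, share 78 bases. They are shown for that shared start region, with the same motifs in capitals.
Col4a1: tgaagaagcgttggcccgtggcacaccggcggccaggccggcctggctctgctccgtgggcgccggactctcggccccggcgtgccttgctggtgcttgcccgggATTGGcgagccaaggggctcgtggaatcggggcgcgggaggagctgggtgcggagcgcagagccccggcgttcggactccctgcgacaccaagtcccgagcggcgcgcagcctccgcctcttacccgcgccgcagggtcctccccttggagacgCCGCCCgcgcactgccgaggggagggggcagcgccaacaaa
Col4a2: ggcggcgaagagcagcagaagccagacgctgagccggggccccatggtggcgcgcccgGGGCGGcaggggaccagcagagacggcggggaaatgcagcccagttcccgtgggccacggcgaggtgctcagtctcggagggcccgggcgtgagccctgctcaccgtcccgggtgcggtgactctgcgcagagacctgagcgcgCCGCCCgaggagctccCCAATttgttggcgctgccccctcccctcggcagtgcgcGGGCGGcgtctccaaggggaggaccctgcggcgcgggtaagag
The Col4a1 window held 1 CCAAT box and 1 GC box, and the Col4a2 window 1 CCAAT box and 3 GC boxes. Whether HTSeq counted by strand is not given in the sources used here, and reads of the 22 shared bases cannot be assigned to a gene without it.

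Col4a5 and Col4a6, type IV chains of more restricted basement membranes, are a second head-to-head pair, 1308 bases apart on chromosome X, chrX:141165403-141474076, minus strand and chrX:141475385-141689234, plus strand. Col4a5 went from 167 and 153 CPM with dexamethasone to 341 and 377 CPM with the vesicles, a log2 fold change of 1.14 ± 0.130 with an adjusted p of 5.11e-05. Col4a6 went from 132 and 119 CPM to 334 and 284 CPM, a log2 fold change of 1.28 ± 0.138 with an adjusted p of 3.48e-05. Both rose, and they stayed called without the trend at 0.90 and 0.88. As fitted these values were below those of Col4a1 and Col4a2, and without the trend they lay between them.

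Type VI collagen, a heterotrimer of its first 3 chains, was abundant in all groups, and which of its chains were called depended on the length and GC trend. As fitted 1 of the 3 was called higher and 1 lower, beside 20.9% and 18.9% of all genes, and without the trend 0 were called higher and 2 lower, beside 14.1% and 17.4%. Col6a1 had 2619 and 2701 CPM with dexamethasone and 2235 and 2183 CPM with the vesicles, a log2 fold change of -0.29 ± 0.105 with an adjusted p of 0.0472. That call was marginal: the adjusted p was 0.195 and 0.268 without dexamethasone replicates 1 and 2, whereas without the trend it was lower by more, at -0.95. Col6a2, 1514 and 1543 CPM against 1391 and 1425 CPM, had a log2 fold change of -0.14 ± 0.106 and an adjusted p of 0.333, and without the trend it was called lower at -0.68. Col6a3 had 2077 and 2009.9 CPM and 2854 and 2552 CPM and was called higher at 0.38 ± 0.109 with an adjusted p of 0.0151, which was 0.108 and 0.152 without dexamethasone replicates 1 and 2 and which left a log2 fold change of 0.0096 without the trend. Col6a4 had at most 8 counts in any library and was not tested.

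The remaining classes were the multiplexins, which have endostatin-like ends, the anchoring fibril collagen, the transmembrane collagens and a few others. They counted 8 members, of which 3 were tested and 0 were called with the vesicles, while 2, Col15a1 and Col18a1, had an unadjusted p under 0.05 in edgeR, where 48.4% of all genes did, and DESeq2 called 0. Col18a1 had 67.7 and 54.4 CPM with dexamethasone and 52.4 and 34.7 CPM with the vesicles, a log2 fold change of -0.51 ± 0.224 with an adjusted p of 0.0929, and it was called lower without the trend at -1.48 and without vesicle replicate 1 at -0.81. Col15a1, the other multiplexin, had 71 and 76 counts with dexamethasone and 76 and 18 with the vesicles, so its last 2 libraries differed widely. Its log2 fold change was -1.58 ± 0.593 with an adjusted p of 0.0526, and it was called lower without vesicle replicate 1, at -2.95, without the filter on low counts and, at -2.22, without the trend. Col7a1, the anchoring fibril chain of skin, stayed at or below 3.39 CPM in 5 libraries, with an adjusted p of 0.605.

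Outside the 23 genes given by library, the 15 other members reached at most 13.2 CPM in any library. Col9a2, Col14a1, Col17a1, Col19a1, Col22a1, Col23a1, Col25a1, Col26a1, Col4a4 and Col6a4 had at most 1.81 CPM in every library. Between 4 and 8 of the 38 members were at 0 in a given library, which at these depths limits detection and does not show absence. Col4a3, Col6a5, Col6a6, Col9a1, Col10a1 and Col13a1 were not in the gene table and so were not analysed.

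The balance between chains of 1 collagen type was compared as a ratio of FPKM within each library, in which the library total cancels. The Col8a1 to Col8a2 ratio fell in order over the groups, with 4.92 and 5.37 in control, 1.87 and 1.89 with dexamethasone and 0.232 and 0.303 with dexamethasone + EPC-EVs. None of these groups overlapped, and per base of the longest transcript the means were 4.97, 1.82 and 0.258. The Col1a1 to Col1a2 ratio was 1.83 ± 0.0165 in control, 1.84 ± 0.228 with dexamethasone and 1.41 ± 0.0170 with the vesicles (mean ± SD, n = 2). The vesicle libraries were lower than the other 4. By the longest transcripts this ratio was 0.869, 0.876 and 0.673, below 1 throughout, so whether the ratio lay above 1 depended on the length. Col6a1 to Col6a3 was 3.32 ± 0.220, 3.56 ± 0.160 and 2.24 ± 0.140 in the 3 groups, again lowest with the vesicles. Col5a1 to Col5a3 was 4.10 ± 0.671 in control and 3.30 ± 0.237 with dexamethasone and was highest with the vesicles, at 6.04 ± 0.270. Within the head-to-head pairs, the ratio of Col4a1 to Col4a2 was 1.44 ± 0.217, 1.09 ± 0.0204 and 1.16 ± 0.129, and that of Col4a5 to Col4a6 was 1.56 ± 0.0502, 1.52 ± 0.0149 and 1.39 ± 0.257, so the vesicle libraries were not separate from the others in either pair. Between the pairs, Col4a1 to Col4a5 was 1.74 ± 0.0570, 1.86 ± 0.0438 and 2.80 ± 0.340, higher with the vesicles. The length and GC trend was not removed from these ratios.

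**Figure D4:**
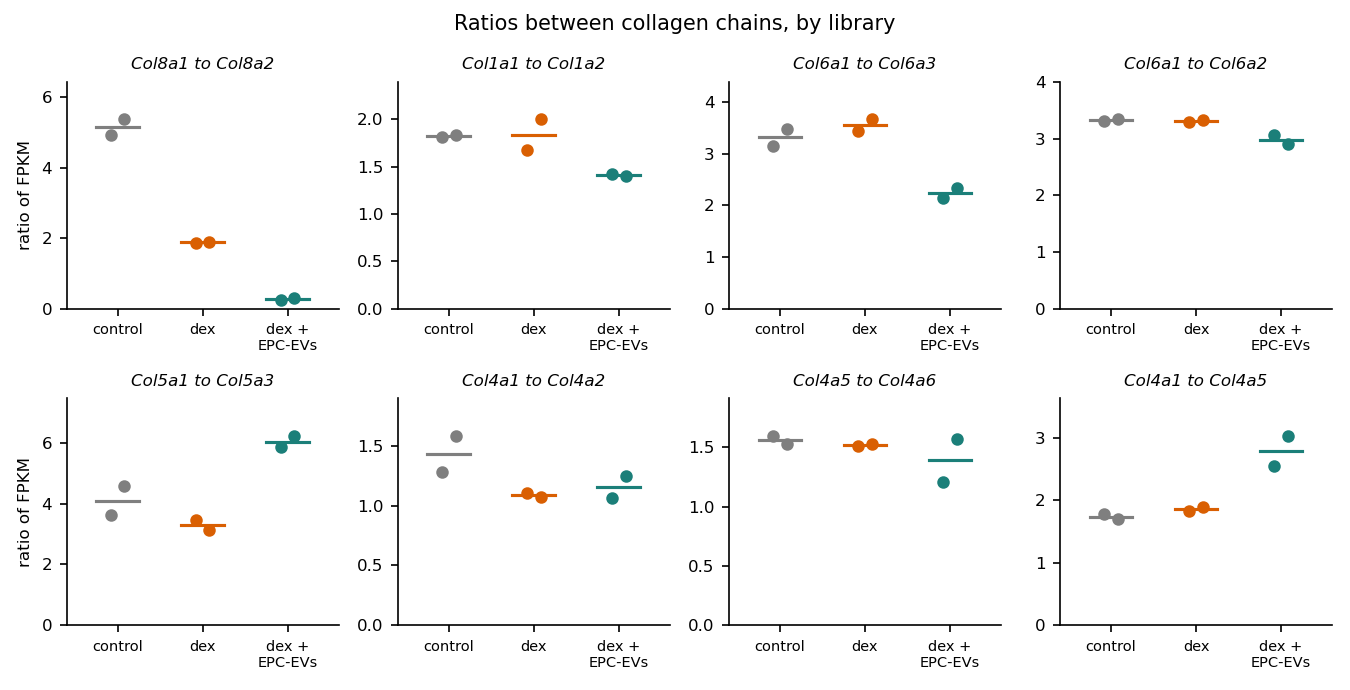
Ratio of FPKM between 8 pairs of collagen chains, with a point for each library and a line for the group mean, for control, dexamethasone (dex) and dexamethasone + EPC-EVs (dex + EPC-EVs). Col8a1 to Col8a2 falls from about 5.15 in control to 0.267 with the vesicles, while Col4a5 to Col4a6 shows overlapping libraries.

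Dexamethasone + EPC-EVs was also compared with control, sharing its vesicle libraries with the comparison above. Of 29 collagen genes tested 16 were called higher and 1 lower, where 19.1% and 17.2% of 13511 genes were called higher and lower. The members had a median of 0.97 on the log2 scale, against 0.021 over all genes. Without the trend 9 were called higher and 6 lower, where 11.0% and 15.1% of all genes were, and the median was 0.13. Col8a2 was 29.5-fold higher than in control, with a log2 fold change of 4.88 ± 0.209 and an adjusted p of 3.23e-05, against 3.63 without the trend. Col4a2 followed at 2.21 ± 0.187, Col1a2 at 2.05 ± 0.205, Col4a1 at 1.92 ± 0.198 and Col1a1 at 1.68 ± 0.204. Without the trend Col4a2 was at 0.88, Col1a2 at 1.19 and Col4a1 at 0.89, all still called, and Col1a1 was not called, at 0.48 with an adjusted p of 0.124. Col12a1 had a log2 fold change of 1.44 ± 0.187 and stayed called at 1.51, then above these 4. Col6a1, at 0.013 ± 0.169, was level with control as fitted and was called lower at -0.99 without the trend. Col5a3 was called higher at 0.65 ± 0.209 with an adjusted p of 0.0398 and called lower at -0.79 without the trend, so its direction depended on that choice. Col20a1, at -0.96 ± 0.326 with an adjusted p of 0.0479, lost its call without control replicate 2 and without either vesicle replicate and was at -1.90 without the trend. Col5a3, Col6a3 and Col8a1 lost theirs under the same 3 omissions, and Col27a1 without vesicle replicate 2.

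For chromosome 1 the deposited table also gave FPKM by transcript, some annotated and some assembled from the reads, which covers 3 members of high level. The annotated transcript of 51 exons of Col3a1 took 76.0 and 30.5% of the gene's transcript FPKM in control, 83.8 and 60.3% with dexamethasone and 94.4 and 94.4% with the vesicles. The annotated transcript of 54 exons of Col5a2 took 53.6 and 51.1%, 59.7 and 71.7% and 91.1 and 90.3% in the same order. For both genes the vesicle libraries were the highest. In Col6a3 an assembled transcript of 11 exons at the 3′ end of the gene took 52.5 and 43.6% in control, 29.9 and 33.7% with dexamethasone and 2.80 and 5.15% with the vesicles. The control replicates differed widely in Col3a1, and the part of these shares in the gene counts was not tested.

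**Figure D5:**
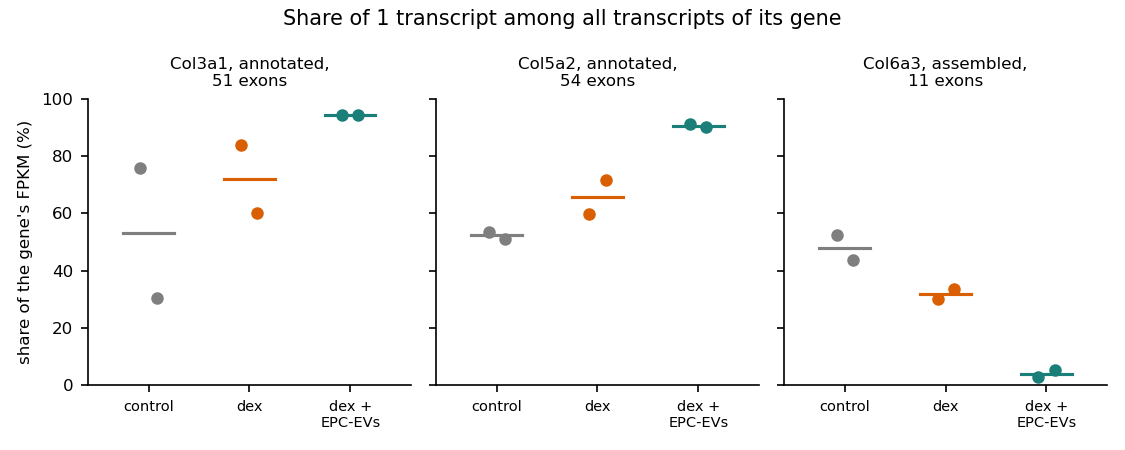
Share of the gene's summed transcript FPKM, in percent, held by the 51-exon transcript of Col3a1, the 54-exon transcript of Col5a2 and an assembled 11-exon transcript of Col6a3, with a point for each library and a line for the group mean in control, dexamethasone (dex) and dexamethasone + EPC-EVs. The vesicle libraries lie above the others for the first 2 transcripts, from 90.3% to 94.4%, and below them in Col6a3.

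The genes that make, secrete, crosslink and bind collagen were read from the same fits, in 4 lists, and 0 of the 41 tested were called with dexamethasone against control by edgeR. Without the filter on low counts 1 of 44, Plod3, was called, where 1.26% of all genes were called in either direction. In that comparison 7 of the 41 had an unadjusted p under 0.05, where 10.9% of all genes did, and 1 and 2 had one without dexamethasone replicates 1 and 2. DESeq2 called 0 of 44, and without control replicate 1 edgeR called 18 of the 41, where 9.25% of all genes were called higher and 6.80% lower. Beside the counts of these lists stand the shares of all genes, 20.9% called higher and 18.9% lower with the vesicles against dexamethasone, and 14.1% and 17.4% without the trend. Nothing is read from them as particular to a list. With the vesicles added to dexamethasone, 7 of 14 tested hydroxylases and glycosyltransferases were called higher and 2 lower, and 5 and 4 without the trend. P3h4, a partner of lysyl hydroxylase, rose from 52.0 and 47.3 CPM to 146 and 165 CPM, a log2 fold change of 1.63 ± 0.155 with an adjusted p of 1.49e-05 and of 0.77 without the trend. P4ha2, a catalytic subunit of the prolyl 4-hydroxylase that stabilizes the helix, fell from 294 and 275 CPM to 98.2 and 78.7 CPM, a log2 fold change of -1.70 ± 0.147 with an adjusted p of 8.04e-06. Its sister subunit P4ha1 also fell, at -1.18 ± 0.122, while P4hb, their common beta subunit, had -0.048 ± 0.108 and was not called. Without the trend all 3 were called lower, P4hb at -0.51.

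Of 9 tested genes of the chaperone, secretion and processing list, 4 were called higher and 0 lower, and 2 and 1 without the trend. They were Serpinh1, the collagen-binding chaperone, at 1.01 ± 0.118, the procollagen C-proteinase Bmp1 and its enhancer Pcolce, the latter at 0.78 ± 0.120 and the coat protein Sec24d at 0.50 ± 0.143. Of these only Serpinh1 was still called without the trend, at 0.34, with Pcolce at 0.23 and Sec24d at 0.27, and the other gene then called higher was Sec23a, at 0.55. The gene then called lower was Creb3l1, at -0.96, and at -1.31 against control. As fitted it was not called in either comparison. Of 10 tested crosslinking and fibril-organising genes, 4 were called higher and 3 lower, and 3 and 2 without the trend. The 3 that fell were Dcn, Bgn and Lum, which encode the small proteoglycans decorin, biglycan and lumican. Dcn fell from 505 and 494 CPM to 92.4 and 44.7 CPM with a log2 fold change of -2.89 ± 0.312, and Lum from 173 and 199 CPM to 68.4 and 26.6 CPM with -1.99 ± 0.436 and an adjusted p of 0.0175. Without the trend Dcn was at -1.94, still called, and Lum at -1.51 with an adjusted p of 0.0681, no longer called. Of 7 tested collagen receptors 4 were called higher and 0 lower, and 5 and 0 without the trend. Itga10 rose from 39.3 and 32.9 CPM to 112 and 132 CPM, at 1.74 ± 0.176, and Ddr1, a receptor kinase, from 31.7 and 23.4 CPM to 84.7 and 97.3 CPM, at 1.71 ± 0.202. Both stayed called without the trend, Ddr1 at 0.81. Against control the 4 lists gave the same counts of calls as against dexamethasone, and without the trend 4 higher and 4 lower, 1 and 1, 2 and 3, and 2 and 0, in the order above, where of all genes 19.1% were called higher and 17.2% lower, and 11.0% and 15.1% without the trend. There the largest rises among the called genes were Plod3, a lysyl hydroxylase, at 2.23 ± 0.241, Itga10 at 2.04 ± 0.219 and Loxl1 at 1.96 ± 0.270, and the largest falls among them Dcn at -3.16 ± 0.324, Lum at -2.31 ± 0.390 and P4ha2 at -1.50 ± 0.202. Without the trend Plod3 was at 1.09, Itga10 at 1.39, Dcn at -1.92, Lum at -1.63 and P4ha2 at -2.02, and Loxl1, at 0.49 with an adjusted p of 0.0907, was the one of these 6 no longer called. In these lists, P4ha1, P4hb, Serpinh1, Bmp1, Pcolce, Sec24d, Sec23a and Creb3l1 were singled out after their values were seen.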

How the data were processed

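The authors aligned the reads to GRCm38 with HISAT2, counted reads per gene with HTSeq 0.6.1 and deposited the counts as they were. The FPKM deposited beside them follow from count, gene length and library total. The transcript FPKM came from StringTie run by the authors, and chromosome 1 was used here. The study states 2 biological replicates a group.

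Each comparison was fitted on its 4 libraries with edgeR 4.0.16 (R 4.3.3), using TMM, filterByExpr and the robust quasi-likelihood test. Adjustment was by Benjamini-Hochberg across every gene tested, with calls under 0.05. Other settings were DESeq2 1.42.0, RLE, no filter, 6 libraries in 1 fit, a replicate block, mitochondrially encoded genes left out, a length and GC trend removed (loess, span 0.4, genes with a mean of at least 5 counts), each library left out, and the study's thresholds. The fit was also tested on simulated counts, the outcome of which is not given here.

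Values by library are given for members with a mean of 10 CPM or a call, and from the biosynthesis lists for the 3 called genes with the largest log2 fold change in each direction. Members, gene lists and marker lists were chosen with earlier results of these data known. CPM use TMM totals over 6 libraries. Of all genes, 21646 were found in GENCODE M21, 32 of the 38 members with the same version.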

Additional observations from a re-analysis of the deposited data

How the results depend on the processing

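Over 11 alternative fits in each comparison, 11 of the 19 collagen genes called between dexamethasone + EPC-EVs and dexamethasone, and 8 of the 17 called against control, kept the same call in every one. RLE normalization and leaving out mitochondrially encoded genes changed no call of the 23 genes given by library. Between dexamethasone + EPC-EVs and dexamethasone, Col11a1, Col16a1, Col6a1 and Col6a3 lost their calls with all 6 libraries in one fit. There 14 collagen genes were called higher and 1 lower, where 30.5% of all genes were called in either direction. Col6a1 also lost its call without the filter. For dexamethasone against control, the count called higher, 0 as reported, was 1 with DESeq2, 2 without the filter and 1 with all 6 libraries in one fit. Of all genes 0.654%, 1.26% and 0.0667% were called in these fits in either direction. The count called lower was 0 in each of them, and both counts moved with a library left out. For dexamethasone + EPC-EVs against dexamethasone, the count called lower, 2 as reported, was 1 with all 6 libraries in one fit. With the length and GC trend removed it was 7, where 17.4% of all genes were called lower, and it moved with a library left out. The study's thresholds (p under 0.05 before adjustment and a log2 fold change of over 1.5 in size) were applied to the edgeR fit. They gave 7 higher and 1 lower, Col15a1, where 14.2% of all genes passed in either direction. For dexamethasone + EPC-EVs against control, the counts with the trend removed were 9 higher and 6 lower, where 11.0% and 15.1% of all genes were called. The study's thresholds gave 5 higher and 1 lower, where 20.7% of all genes passed in either direction. The count called lower was 0 with DESeq2 and 0 without the filter, and it moved with a library left out. In the fits with DESeq2 and without the filter, 24.1% and 27.0% of all genes were called in either direction.

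The labels do not say whether libraries with the same replicate number shared a culture. Across 13485 genes the deviations of same-numbered libraries correlated at 0.0619 for dexamethasone against control. The values were 0.0114 for dexamethasone + EPC-EVs against dexamethasone and 0.00732 against control. With the number as a replicate block, 18 collagen genes were called higher and 4 lower between dexamethasone + EPC-EVs and dexamethasone, where 39.6% of all genes were called in either direction. They were 16 and 0 against control, where 34.6% of all genes were called, and 0 between dexamethasone and control, where 0.334% were and 10 of the 28 members had an unadjusted p under 0.05 in edgeR.

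With the length and GC trend removed, 16 log2 fold changes turned in sign among the 23 genes given by library, and Col7a1, outside them, turned in both comparisons of the vesicles (-0.46 and -0.073). Between dexamethasone and control these were Col1a1 (-0.22), Col1a2 (-0.14), Col4a1 (-0.16), Col4a5 (-0.027), Col4a6 (-0.073), Col6a1 (-0.065) and Col6a3 (-0.062). Between dexamethasone + EPC-EVs and dexamethasone it was Col16a1 (-0.47), and against control Col11a2 (-0.76), Col16a1 (-0.18), Col18a1 (-1.13), Col27a1 (-0.047), Col5a3 (-0.79), Col6a1 (-0.99), Col6a2 (-0.64) and Col6a3 (-0.026). Leaving out a single library turned the sign of others, given here with their range over the 4 omissions, in which a lone sample is assumed to vary like the others. Between dexamethasone and control these were Col11a1 (-0.66 to 0.16), Col27a1 (-0.19 to 0.027) and Col2a1 (-0.59 to 0.34), between dexamethasone + EPC-EVs and dexamethasone Col2a1 (-1.97 to 0.34) and Col5a3 (-0.16 to 0.046), and against control Col11a1 (-0.093 to 0.70), Col18a1 (-0.039 to 0.54), Col2a1 (-2.02 to 0.29) and Col6a1 (-0.011 to 0.098). The count called higher moved with these omissions against dexamethasone and against control, and so did the share of all genes called. The cause of these changes was not tested.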
